A study of Rattus norvegicus with 12 samples.

Results

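Offspring labelled with in utero oxycodone exposure (IUO) were set against saline controls in the prefrontal cortex of the rat in early adolescence, with 4 libraries in each group and 1 library per animal. These 8 of the series' 12 libraries were chosen by their labels alone. The comparison covered the 14170 of 22431 genes whose mean FPKM over the 12 libraries was at least 0.5; FPKM scales fragments to gene length and library size. The saline animals are labelled as controls and wild type. The IUO animals are also wild type, and the protocol gives oxycodone by oral gavage at 15 mg/kg, before or after pregnancy, with an end at postnatal day 21. Which days belong to which group is not in the labels, nor are strain, sex or exact age. The 4 animals of a group were taken as 2 from each of 2 dams, but which animals share a dam is not labelled. Dam was therefore left out of the model, and the p-values, which treat littermates as independent, may be too small. The 4 libraries of the third group, offspring exposed after birth (PNO), entered the model only for the spread between animals.

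Oxycodone is an agonist of the mu opioid receptor, which couples to inhibitory G proteins and lowers neuronal firing and transmitter release. In the cortex these receptors sit largely on inhibitory interneurons, and the drug crosses the placenta. Neuronal firing is read out in RNA by immediate early genes and the effectors they control, and the load on the secretory pathway by chaperones of the endoplasmic reticulum, so both were examined beside opioid, transmitter, glial and vascular genes.

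Total counts in the 8 libraries ran from 49227533 to 60672246. Cortical markers were present: the upper-layer transcription factor gene Cux1 measured 53.1 to 79.5 CPM (counts scaled to library size with TMM factors) and the pyramidal-cell gene Neurod6 61.9 to 112 CPM. Markers of neighbouring regions were uneven. The mean log2 CPM of 13 striatal genes was 3.72, 4.87, 3.73 and 3.81 in saline 1 to 4 and 5.06, 6.17, 3.76 and 3.73 in IUO 1 to 4. That of 11 olfactory bulb genes was 2.33, 2.33, 2.46 and 2.33 in saline and 2.67, 2.21, 4.88 and 2.16 in IUO. Saline 2, IUO 1 and IUO 2 stood apart by striatal genes and IUO 3 by bulb genes. Values are therefore also given without the striatal-marker libraries (saline 2, IUO 1, IUO 2 and PNO 2), which leaves saline 1, 3 and 4 against IUO 3 and 4, and without the bulb-marker libraries (IUO 3, PNO 1, PNO 3 and PNO 4). Pearson's r of log2 CPM across the tested genes was 0.976 to 0.981 between saline libraries, 0.968 to 0.983 among IUO 1 to 3 and 0.954 to 0.969 between IUO 4 and the other IUO libraries. The Y-linked gene Eif2s3y measured 61.5, 0.817, 55.6 and 0.582 CPM in saline 1 to 4 and 0.522, 0.59, 53.9 and 0.939 CPM in IUO 1 to 4, so 2 saline libraries and 1 IUO library were high. In bulk tissue, fewer cells of a type and less RNA per cell cannot be told apart.

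No gene passed the threshold of an adjusted p under 0.05. The edgeR quasi-likelihood test with Benjamini-Hochberg adjustment called 0 of 14170 genes (0%), the lowest adjusted p being 0.943. Without adjustment, 570 genes had a p under 0.05 (4.02% of those tested), of which 327 were higher in IUO (2.31%) and 243 lower (1.71%), against 708 by chance alone. All 4 IUO libraries lay above all 4 saline libraries for 163 genes (1.15%) and below them for 146 (1.03%), together 309 (2.18%). Over all genes the median log2 fold change was 0.023 and 56.4% had a positive sign. DESeq2 called 11 genes (0.0776%), 9 higher and 2 lower. The excess of higher over lower genes at an unadjusted p under 0.05 (57.4% higher) depended on scaling and filter: it was 48.7% with upper-quartile factors and 45.4% among genes at a mean FPKM of 2 or more. The genes described below are therefore those with the smallest p and the members of functional groups, given with their values, and none of them passed with edgeR on all libraries.

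**Figure D1:**
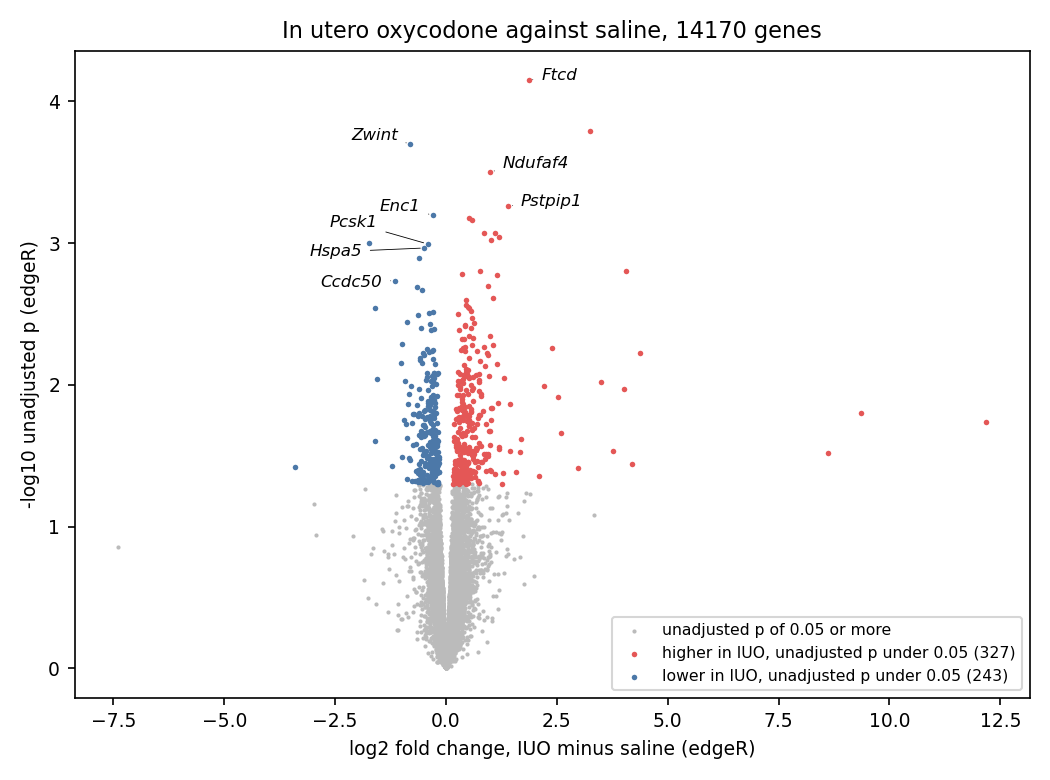
Each point is 1 of the 14170 genes, by log2 fold change of IUO against saline (x axis) and minus log10 of the unadjusted edgeR p (y axis). The 327 higher and 243 lower genes at an unadjusted p under 0.05 are coloured; points far to the right are genes with no or few counts in saline, whose fitted fold change is not a measured size.

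Among the 12 lower genes with the smallest p, Zwint and Enc1 came first. Zwint encodes a kinetochore protein that neurons also express abundantly, and lies at chr20:15938157-15953957, minus strand in the deposited table, whose genome build is not given. It measured 2666, 2993, 2515 and 2741 CPM in saline 1 to 4 and 1301, 2279, 1307 and 1351 CPM in IUO 1 to 4. IUO 2 alone stood near the saline range, and the groups did not overlap. The log2 fold change of -0.81 (SE 0.16) had an edgeR adjusted p of 0.943 and a DESeq2 adjusted p of 8.72e-04. Without IUO 2, Zwint was the single gene edgeR called, at a log2 fold change of -1.05 and an adjusted p of 4.91e-04. It was also called without the striatal-marker libraries, at -0.99 and an adjusted p of 0.0193. These libraries include IUO 2, so both fits leave out the IUO library nearest to saline.

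Enc1, an actin-binding protein of the neural cortex (chr2:28550464-28562713, plus strand), measured 764, 748, 742 and 754 CPM in saline 1 to 4 and 620.5, 610.0, 604 and 614 CPM in IUO 1 to 4. The 8 values formed 2 separate bands, with a log2 fold change of -0.30 (SE 0.067) and a DESeq2 adjusted p of 0.00253. Pcsk1 encodes the prohormone convertase that cleaves neuropeptide precursors in secretory granules. It measured 22.4, 23.8, 24.8 and 22.6 CPM in saline 1 to 4 and 18.1, 15.2, 18.6 and 18.2 CPM in IUO 1 to 4, with every IUO library below the saline range and a log2 fold change of -0.41 (SE 0.10).

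Other genes of this set are known for roles in trafficking, transcription or immunity. Ccdc50 measured 14.6, 13.9, 16.4 and 11.6 CPM in saline 1 to 4 and 5.30, 8.49, 4.82 and 6.83 CPM in IUO 1 to 4, a log2 fold change of -1.15 (SE 0.30) without overlap. Klf10, a zinc finger transcription factor induced by TGF-beta, measured 31.7, 44.3, 36.5 and 41.8 CPM in saline 1 to 4 and 20.2, 19.2, 33.4 and 25.5 CPM in IUO 1 to 4; IUO 3 reached into the saline range. Its log2 fold change of -0.65 was -0.32 without the striatal-marker libraries. The sorting nexin gene Snx7 measured 24.4, 27.9, 25.1 and 24.9 CPM in saline 1 to 4 and 21.8, 20.3, 20.2 and 20.6 CPM in IUO 1 to 4. Its groups were apart by a small margin, with a log2 fold change of -0.30 (SE 0.084). The zinc finger gene Zfp180 (log2 fold change -0.39) and the neutrophil calprotectin gene S100a9 (-1.60) overlapped between groups, and S100a9 stood below 3 CPM in each library, with a log2 fold change of -0.72 without the striatal-marker libraries. Of 2 further entries listed without a symbol, ENSRNOG00000019416 measured 29.9 ± 2.93 CPM in IUO and 43.5 ± 7.06 CPM in saline (SD, n = 4 each) and ENSRNOG00000049446 0.517 ± 0.211 CPM in IUO and 1.71 ± 0.356 CPM in saline.

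Of the 12 higher genes with the smallest p, Ftcd came first. Ftcd, an enzyme of histidine and folate metabolism (chr20:12055208-12068735, minus strand), measured 0.296, 0.714, 0.92 and 0.565 CPM in saline 1 to 4 and 2.09, 1.95, 1.71 and 3.33 CPM in IUO 1 to 4. These rest on 18 to 53 counts in saline and 96 to 181 in IUO. Every IUO library was above every saline library, with a log2 fold change of 1.86 (SE 0.33), an edgeR adjusted p of 0.943 and a DESeq2 adjusted p of 6.69e-04.

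Ndufaf4, an assembly factor of respiratory complex I, measured 11.2, 7.96, 10.1 and 7.91 CPM in saline 1 to 4 and 15.3, 16.7, 18.5 and 23.5 CPM in IUO 1 to 4. IUO 4 was highest and no library of one group reached the other; the log2 fold change of 0.99 (SE 0.21) had a DESeq2 adjusted p of 0.00503. Pstpip1, a cytoskeletal adaptor of blood and immune cells, measured 3.88, 7.71, 3.70 and 7.78 CPM in saline 1 to 4 and 13.6, 11.6, 10.6 and 25.5 CPM in IUO 1 to 4. The blood-marker mean, given with the vascular genes below, was high in IUO 4 (Pstpip1 at 25.5 CPM) and in saline 1 (3.88 CPM). That mean was low in IUO 1 (13.6 CPM). The part of blood in this difference was not tested. Wdr41, a partner of the C9orf72 complex in autophagy, measured 28.2, 28.9, 34.2 and 25.2 CPM in saline 1 to 4 and 40.4, 39.8, 39.4 and 47.6 CPM in IUO 1 to 4. Its groups were separate, with a log2 fold change of 0.52 (SE 0.12). The follistatin-like gene Fstl4 measured 14.3, 17.8, 18.3 and 22.4 CPM in saline 1 to 4 and 24.1, 26.9, 25.4 and 32.3 CPM in IUO 1 to 4, also separate, with a log2 fold change of 0.58 (SE 0.13).

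Among the remaining higher genes, Ltc4s, the leukotriene C4 synthase of myeloid cells, measured 4.54, 4.51, 3.11 and 4.73 CPM in saline 1 to 4 and 6.43, 6.45, 6.36 and 9.42 CPM in IUO 1 to 4, with saline 3 and IUO 4 at the ends. Mis18a, a centromere factor, had 0, 27, 18 and 4 counts in saline 1 to 4 and 274, 244, 252 and 22 in IUO 1 to 4, so IUO 4 lay inside the saline range. Snrpel1, which resembles the spliceosomal gene Snrpe, measured 7.66 ± 2.26 CPM in IUO and 3.32 ± 0.86 CPM in saline (SD, n = 4 each), and reads could be shared with its relative, which makes that value uncertain. ENSRNOG00000071123, ENSRNOG00000033517 and ENSRNOG00000068016, listed without symbols, had log2 fold changes of 0.86, 1.11 and 1.01 with no overlap. Of these ENSRNOG00000033517 was the most abundant, at 46.5 ± 15.4 CPM in IUO and 21.5 ± 1.61 CPM in saline (SD, n = 4 each). Among the 11 genes DESeq2 called were 3 with 0 counts in every saline library, for which no fold is given. S100a5 had 337 counts in IUO 3 and 0 in the other 7 libraries. ENSRNOG00000025589 had 306 in IUO 3 and 1915 in IUO 4, and ENSRNOG00000062326 had 101 in IUO 2 and 74 in IUO 4, both with 0 elsewhere in these groups. In each of the 3, the IUO libraries disagreed among themselves.

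**Figure D2:**
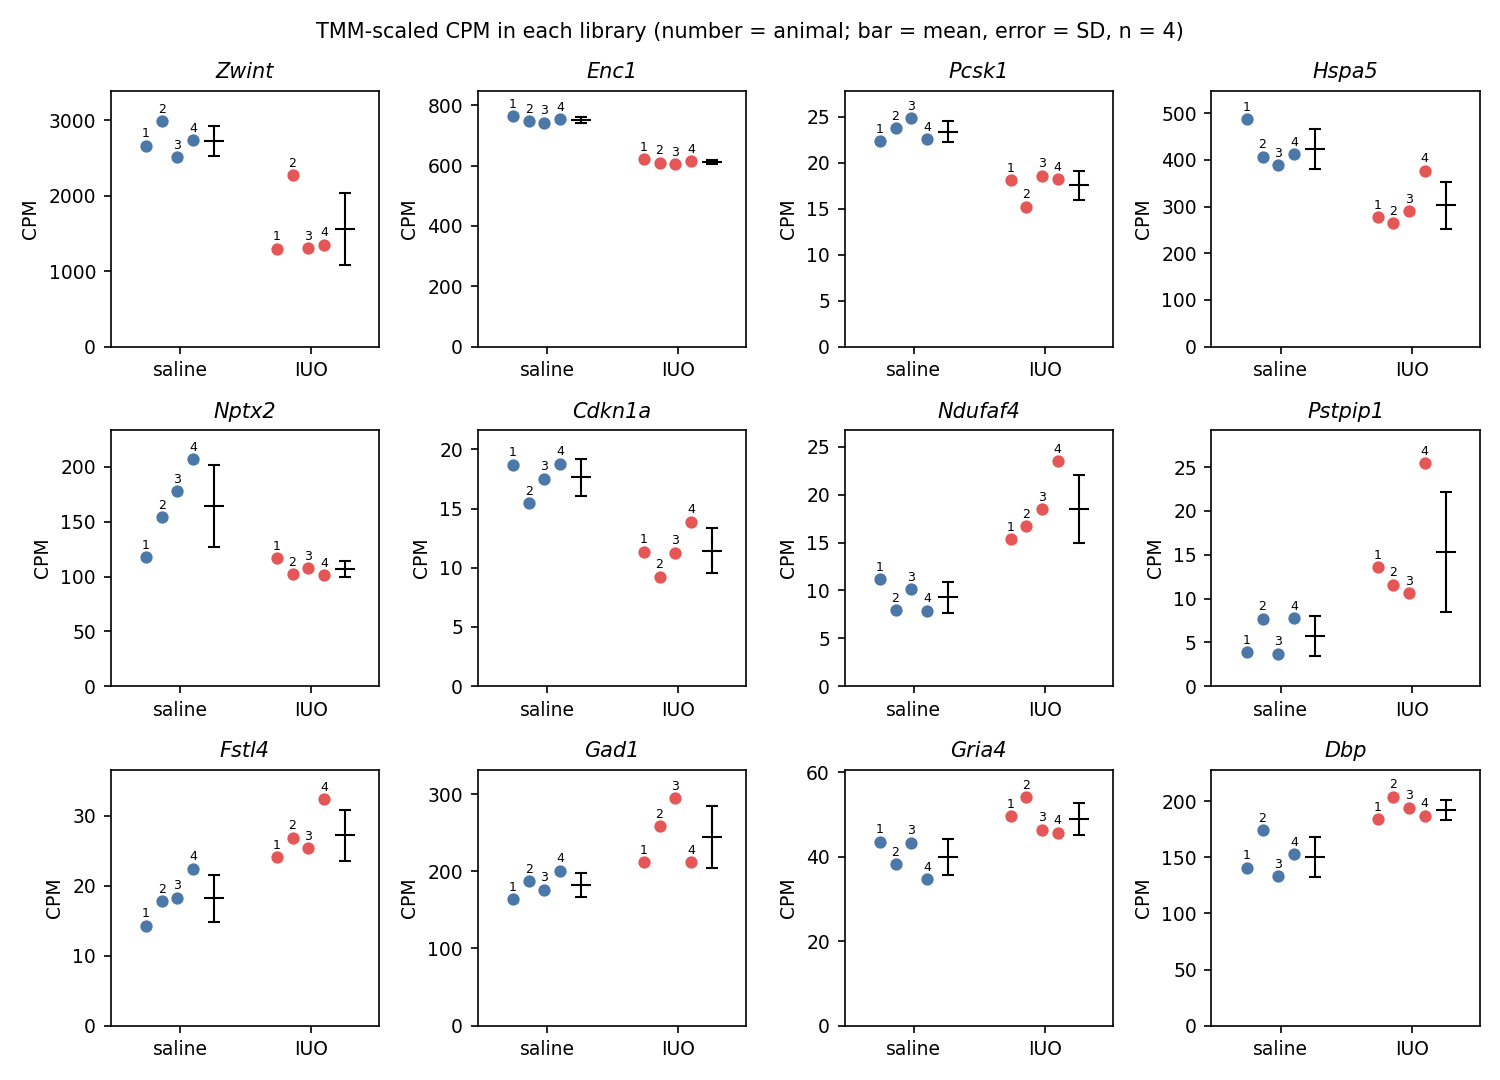
CPM (y axis, from 0) of 12 genes in each of the 4 saline (blue) and 4 IUO (red) libraries, numbered by animal, with the mean and SD beside the points. Enc1 forms 2 bands at 742 to 764 and 604 to 620.5 CPM, Zwint has IUO 2 apart at 2279 CPM, and the panels of Ndufaf4, Pstpip1 and Fstl4 show IUO above saline without overlap.

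Immediate early genes encode transcription factors and effectors that neurons induce within minutes of activity, through CREB, SRF and MAP kinase signalling. Of 18 transcription factors of this class 16 had a negative sign, with a median of -0.22 against 0.023 for all genes, and 3 were lower at an unadjusted p under 0.05 (background 1.71%), Egr3, Nr4a1 and Klf10. Relative to the saline mean, the list's mean log2 CPM was 0.17, -0.12, -0.12 and 0.06 in saline 1 to 4 and -0.69, -0.89, 0.10 and 0.01 in IUO 1 to 4. The low libraries were IUO 1 and IUO 2, which are among the striatal-marker libraries. Without the striatal-marker libraries 11 of 18 were positive and the median was 0.083, and with the striatal and bulb means as covariates it was -0.13. Egr3 measured 44.6, 38.3, 49.4 and 47.6 CPM in saline 1 to 4 and 38.0, 39.9, 29.9 and 21.3 CPM in IUO 1 to 4. Here the low libraries were IUO 3 and IUO 4, with a log2 fold change of -0.48 (SE 0.19) that was -0.88 without the striatal-marker libraries. Nr4a1, an orphan nuclear receptor, measured 112, 119.8, 133 and 175 CPM in saline 1 to 4 and 47.6, 33.5, 129.5 and 90.1 CPM in IUO 1 to 4; IUO 1 and IUO 2 were low and IUO 3 was within the saline range. Its log2 fold change of -0.85 was -0.35 without the striatal-marker libraries.

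Effectors of activity, which act at synapses or are secreted, had 17 of 19 negative signs. Of these genes 6 were lower at an unadjusted p under 0.05 (background 1.71%) and the median was -0.38. Relative to the saline mean the list stood at 0.00077, -0.14, 0.015 and 0.12 in saline 1 to 4 and -0.53, -0.60, -0.10 and -0.15 in IUO 1 to 4 on the log2 scale. IUO 1 and IUO 2 were low, and saline 2 overlapped IUO 3. Without the striatal-marker libraries the median was -0.23 with 15 of 19 negative. Nptx2, a pentraxin that gathers AMPA receptors at synapses, measured 118, 154, 178 and 207 CPM in saline 1 to 4 and 117, 102, 108 and 101 CPM in IUO 1 to 4. The IUO values were close together while the saline values spanned a wide range, and saline 1 was only just above the highest IUO library. Its log2 fold change of -0.62 (SE 0.15) was -0.68 without the striatal-marker libraries. Bdnf, the brain-derived neurotrophic factor, measured 29.9, 28.7, 29.9 and 36.1 CPM in saline 1 to 4 and 19.8, 15.4, 19.8 and 30.6 CPM in IUO 1 to 4. IUO 4 overlapped the controls, and the log2 fold change of -0.54 (SE 0.17) became -0.35 without the striatal-marker libraries and -0.26 with the region means as covariates. Arc, a regulator of AMPA receptor uptake chosen after its values were seen, measured 258, 243, 326 and 391 CPM in saline 1 to 4 and 51.5, 39.8, 306 and 211 CPM in IUO 1 to 4. IUO 1 and IUO 2 were below the other 6 libraries, and its log2 fold change was -1.0.

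Vgf encodes a secreted neuropeptide precursor that is processed in the same granules as the substrates of Pcsk1. It measured 263, 374, 430.0 and 429 CPM in saline 1 to 4 and 267, 255, 278 and 331 CPM in IUO 1 to 4. Saline 1 was as low as the IUO libraries, and the log2 fold change of -0.41 (SE 0.14) came with overlap. Its promoter is shown because it carries the cyclic AMP response element, TGACGTCA (searched on both strands; it shares TGACGT with the UPRE named below), in capitals. RefSeq promoters (GRCr8, 250 bases before to 50 after each start) held it for 3 of 13 matched immediate early transcription factors (Btg2, Ier2 and Jund) and 3 of 16 matched effectors (Plk2, Scg2 and Vgf), against 1.83% of all 33469 promoters and 3.03% of the 11135 promoters of tested genes. Beside Vgf, the log2 fold changes of these genes were -0.19 (Btg2), -0.086 (Ier2), 0.11 (Jund), -0.046 (Plk2) and -0.082 (Scg2). The shares draw on sequence alone, and a link of the element to the differences was not tested. The stretch of the Vgf promoter printed is chr12:25277021-25277270, minus strand.

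Vgf promoter: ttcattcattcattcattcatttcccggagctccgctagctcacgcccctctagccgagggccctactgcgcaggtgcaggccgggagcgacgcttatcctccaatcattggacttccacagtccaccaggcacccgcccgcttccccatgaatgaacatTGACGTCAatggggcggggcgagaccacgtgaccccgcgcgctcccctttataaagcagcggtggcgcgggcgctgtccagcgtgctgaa

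Feedback inhibitors of MAP kinase signalling are induced by the pathway they restrain. Of 11 such genes 8 had a negative sign, with a median of -0.081; the median was -0.044 without the striatal-marker libraries, -0.024 without IUO 4, -0.34 without the bulb-marker libraries and -0.39 with the region means as covariates. Dusp6, the phosphatase that inactivates ERK, measured 37.7, 34.2, 35.3 and 35.9 CPM in saline 1 to 4 and 21.3, 18.2, 27.6 and 30.0 CPM in IUO 1 to 4. All IUO values were below the narrow saline range, with a log2 fold change of -0.56 (SE 0.16) that was -0.33 without the striatal-marker libraries. Spry4 (-0.37) and Spred3 (-0.30), inhibitors of receptor tyrosine kinase signalling, overlapped between groups.

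Chaperones of the endoplasmic reticulum fold secreted and membrane proteins. When unfolded protein accumulates, the factors ATF6 and XBP1 induce them through the endoplasmic reticulum stress element (ERSE), which ATF6 binds together with NF-Y. Its consensus, CCAAT and CCACG with 9 bases of any kind between them, was searched on both strands; its end can overlap the start of an E-box, CACGTG. It was present in the promoters of 9 of 23 matched members of this list (9 of their 24 promoters) and in 22 of all 33469 promoters (0.0657%; 0.162% of the promoters of tested genes). The list was made of known genes of this response, and the share draws on sequence alone, not on the values of these libraries. The related UPRE, TGACGTGG, was found for 1 member, Hyou1, against 0.595% of all promoters and 0.889% of those of tested genes. The Hspa5 promoter is shown with its ERSE in capitals, at chr3:38452766-38453015 of GRCr8, plus strand.

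Hspa5 promoter: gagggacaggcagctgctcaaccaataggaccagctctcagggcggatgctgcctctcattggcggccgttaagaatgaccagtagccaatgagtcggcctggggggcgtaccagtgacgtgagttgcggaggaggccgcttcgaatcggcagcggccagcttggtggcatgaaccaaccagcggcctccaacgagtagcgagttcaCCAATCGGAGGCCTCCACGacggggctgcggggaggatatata

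The ERSE matches of 8 of these 9 genes are shown with 10 bases on each side, on the strand that carries the motif, to let the fixed ends and the variable centre be compared. Matches stand on the gene's own strand for Hspa5, Xbp1, Dnajc3 and the first Hsp90b1 match and on the opposite strand for the others.

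Hspa5, chr3:38452963-38453001, plus strand: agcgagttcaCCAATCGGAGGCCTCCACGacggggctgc
Hsp90b1, chr7:23012441-23012479, minus strand: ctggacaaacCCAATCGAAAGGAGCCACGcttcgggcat
Hsp90b1, chr7:23012337-23012375, plus strand: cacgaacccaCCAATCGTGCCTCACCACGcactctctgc
Creld2, chr7:121789229-121789267, minus strand: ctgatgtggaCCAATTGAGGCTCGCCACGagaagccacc
Xbp1, chr14:84604548-84604586, plus strand: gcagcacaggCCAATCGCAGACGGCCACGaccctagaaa
Dnajc3, chr15:102432524-102432562, plus strand: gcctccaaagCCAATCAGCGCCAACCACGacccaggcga
Ero1b, chr17:92941448-92941486, minus strand: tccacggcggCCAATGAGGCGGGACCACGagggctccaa
Calr, chr19:40213125-40213163, minus strand: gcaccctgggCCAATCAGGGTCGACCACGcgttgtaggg
Derl3, chr20:12766591-12766629, plus strand: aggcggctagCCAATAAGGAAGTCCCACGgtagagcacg

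Of the 29 members tested 22 had a negative sign, with a median of -0.13, and 6 were lower at an unadjusted p under 0.05 while 0 were higher (background 1.71% and 2.31%). In 3, Hspa5, Pdia6 and Xbp1, all IUO libraries lay below all saline libraries (background 1.03%). Manf had the highest log2 fold change of the list, 1.29, with an unadjusted edgeR p of 0.081. The list's level relative to the saline mean was 0.11, -0.088, -0.027 and 0.0064 in saline 1 to 4 and -0.18, -0.091, -0.069 and 0.037 in IUO 1 to 4. Saline 1 was high and IUO 4 was near the saline mean, and the median was -0.11 without the striatal-marker libraries, -0.086 without IUO 4 (19 of 29 negative) and -0.067 with the region means as covariates. The 9 members with an ERSE match had a median log2 fold change of -0.21, 8 of them negative, the 14 searched without a match a median of -0.034, 11 negative, while 6 had no promoter entry and were not searched; this is a description of the list and was not tested.

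Hspa5 (BiP), the Hsp70 of the endoplasmic reticulum whose promoter is printed above, measured 487, 407, 388 and 412 CPM in saline 1 to 4 and 278, 264, 290.0 and 377 CPM in IUO 1 to 4. IUO 4 came nearest to the saline range, and the log2 fold change of -0.49 (SE 0.12) was -0.61 without IUO 4 and -0.36 without the striatal-marker libraries. The disulfide isomerase gene Pdia6 measured 162, 171, 154 and 156 CPM in saline 1 to 4 and 130.3, 122, 139.9 and 152 CPM in IUO 1 to 4, with a log2 fold change of -0.24 (SE 0.077) that was -0.11 without the striatal-marker libraries. IUO 4 was again the nearest to saline. Pdia3, an isomerase that works with calreticulin on glycoproteins, measured 291, 279.7, 265 and 261 CPM in saline 1 to 4 and 197, 229.9, 234 and 276 CPM in IUO 1 to 4; here IUO 4 overlapped, and the log2 fold change of -0.23 was -0.094 without the striatal-marker libraries. Xbp1, the transcription factor of the pathway, measured 109, 114, 106 and 123 CPM in saline 1 to 4 and 83.7, 98.7, 103 and 92.6 CPM in IUO 1 to 4. Its groups were separate, with a log2 fold change of -0.26 (SE 0.084).

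**Figure D3:**
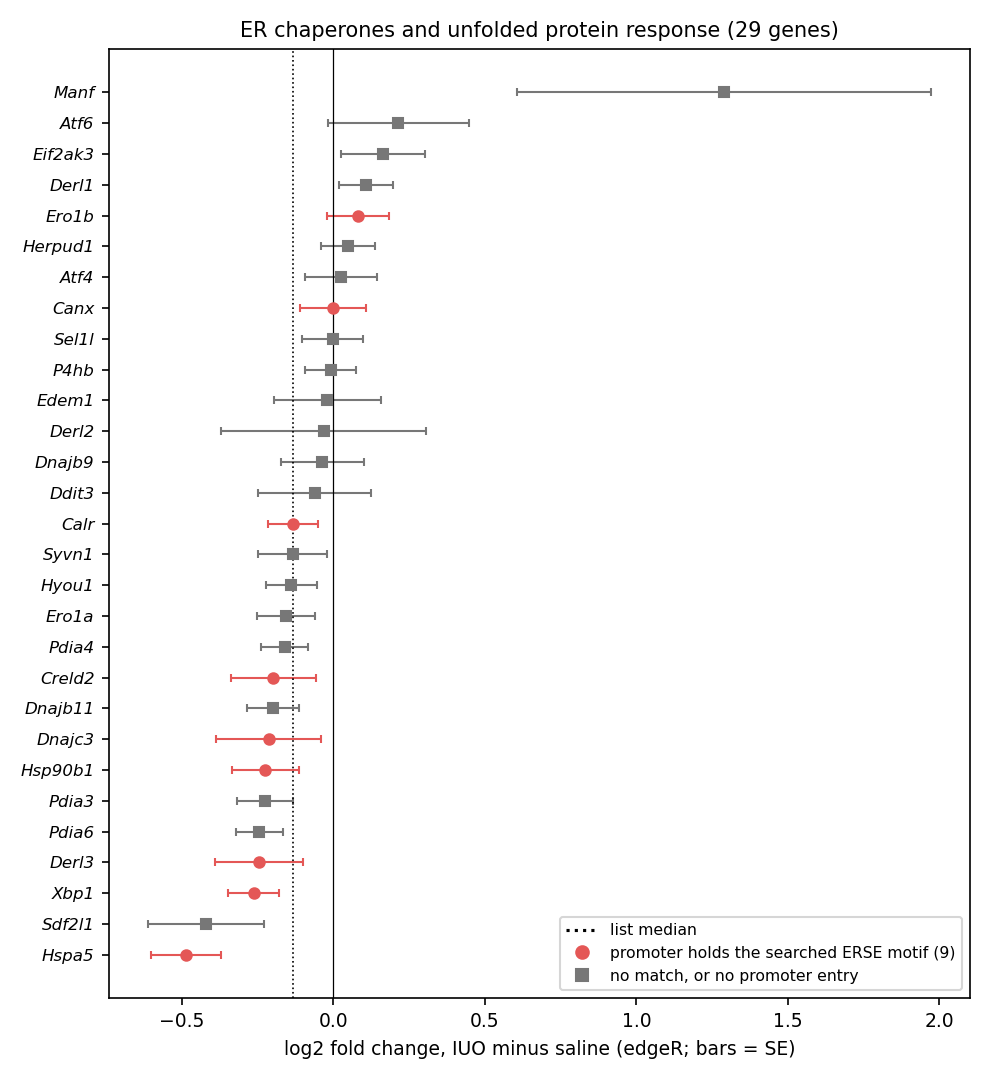
Log2 fold change of IUO against saline (x axis) with its SE for the 29 genes of the endoplasmic reticulum list, ordered by value; circles mark the 9 with an ERSE match, squares the genes with no match or no promoter to search, and the dotted line the median of -0.13. Hspa5 is lowest at -0.49, Manf is highest at 1.29, and 22 of the 29 members lie below 0.

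Heat shock proteins assist folding in the cytosol and mitochondria. Of 21 genes 17 had a negative sign, with a median of -0.07, which was 0.022 with the region means as covariates. The co-chaperone gene Dnaja1 was the 1 member at an unadjusted p under 0.05 (background 4.02% in either direction). It measured 265, 225, 255 and 221 CPM in saline 1 to 4 and 195, 198, 193 and 231 CPM in IUO 1 to 4, with IUO 4 inside the saline range and a log2 fold change of -0.24 (SE 0.085) that was -0.12 with the covariates.

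Opioid receptors and peptides form the system that oxycodone acts on. The mu receptor gene Oprm1 had 63 counts over the 12 libraries, 6 of them in saline and 25 in IUO, and the kappa receptor gene Oprk1 a mean FPKM of 0.403; both were below the filter and were not tested. Of the 6 members tested 5 had a positive sign and the median was 0.33. It was 0.088 without the striatal-marker libraries. The delta receptor gene Oprd1 measured 1.56, 0.578, 0.625 and 1.36 CPM in saline 1 to 4 and 1.58, 2.16, 1.46 and 1.49 CPM in IUO 1 to 4, a log2 fold change of 0.69 (SE 0.35) at low counts that was 0.32 without the striatal-marker libraries. The nociceptin receptor gene Oprl1 measured 16.3, 15.3, 15.3 and 13.3 CPM in saline 1 to 4 and 16.6, 16.7, 13.1 and 14.1 CPM in IUO 1 to 4, with no separation at all. Among the peptide precursors, Penk (enkephalins) measured 76.0, 145, 65.2 and 73.0 CPM in saline 1 to 4 and 134, 296, 113 and 106 CPM in IUO 1 to 4. Saline 2 and IUO 2, both with raised striatal markers, were highest in their groups. The log2 fold change of Penk, 0.86 (SE 0.48), was 0.33 with the region means as covariates. Penk is itself among the genes of the striatal mean, so that covariate is not independent of it. Without the striatal-marker libraries the log2 fold change was 0.62, at an unadjusted edgeR p of 1.27e-04. The lowest adjusted p of Penk in any alternative was 0.322. Pdyn (dynorphins) measured 24.2, 31.8, 26.1 and 22.1 CPM in saline 1 to 4 and 31.7, 67.5, 16.2 and 18.1 CPM in IUO 1 to 4; the log2 fold change of 0.35 (SE 0.49) became -0.50 without the striatal-marker libraries. Pnoc (nociceptin) measured 7.29, 8.93, 10.2 and 9.09 CPM in saline 1 to 4 and 9.07, 10.2, 9.89 and 14.9 CPM in IUO 1 to 4, with IUO 4 highest and a log2 fold change of 0.31 (SE 0.16) that was 0.13 without IUO 4.

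Downstream of these receptors act inhibitory G proteins, adenylate cyclases, potassium channels, arrestins and RGS proteins, which speed the return of G proteins to rest. Of 25 such genes 14 had a positive and 11 a negative sign, with a median of 0.011 (-0.13 without the striatal-marker libraries). Rgs14, an RGS protein of pyramidal neurons, was the member with the smallest p. It measured 50.9, 55.0, 48.6 and 53.7 CPM in saline 1 to 4 and 42.9, 38.8, 48.0 and 36.6 CPM in IUO 1 to 4. Every IUO library was below every saline library, with IUO 3 closest, at a log2 fold change of -0.32 (SE 0.10). It was the 1 non-overlapping difference of the list (background 2.18% in either direction). Arrb1, beta-arrestin 1, measured 10.5, 6.82, 9.47 and 7.25 CPM in saline 1 to 4 and 15.9, 14.5, 10.8 and 5.49 CPM in IUO 1 to 4, high in IUO 1 and IUO 2. Its log2 fold change of 0.45 became -0.16 without the striatal-marker libraries.

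GABAergic interneuron genes lay mostly above saline. Of 16 genes 15 had a positive sign, 2 were higher at an unadjusted p under 0.05 (background 2.31%) and the median was 0.35. It was 0.26 without the striatal-marker libraries, 0.17 without the bulb-marker libraries and 0.023 with both region means as covariates. Relative to saline the list stood at -0.18, 0.009, 0.19 and -0.029 in saline 1 to 4 and 0.22, 0.21, 0.68 and -0.091 in IUO 1 to 4. IUO 3, with raised bulb markers, was highest, and saline 2, with raised striatal markers, was near the saline mean. Striatum and olfactory bulb are both rich in GABAergic cells, and their part in this difference was not tested. Gad1, which makes GABA, measured 164, 187, 176 and 201 CPM in saline 1 to 4 and 212, 259, 295 and 212 CPM in IUO 1 to 4. The groups were separate, with a log2 fold change of 0.42 (SE 0.12) that was 0.31 without the bulb-marker libraries and 0.25 with the covariates. Gad2, the other GABA-synthesising enzyme, measured 9.27, 7.01, 9.56 and 5.98 CPM in saline 1 to 4 and 16.4, 22.9, 10.6 and 5.32 CPM in IUO 1 to 4. It was highest in IUO 1 and IUO 2, and its log2 fold change of 0.79 was -0.057 without the striatal-marker libraries. Dlx6, a homeobox gene of interneurons, measured 2.27, 4.83, 3.47 and 3.49 CPM in saline 1 to 4 and 3.74, 7.41, 7.42 and 5.71 CPM in IUO 1 to 4 and overlapped.

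Of 11 GABA-A receptor subunits 9 had a positive sign, with a median of 0.17 that was -0.11 without the striatal-marker libraries.

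Glutamate receptors and transporters were split 19 positive to 8 negative, with a median of 0.12, which was 0.0014 without the striatal-marker libraries. The AMPA receptor subunit gene Gria4 measured 43.5, 38.3, 43.3 and 34.7 CPM in saline 1 to 4 and 49.6, 54.1, 46.4 and 45.6 CPM in IUO 1 to 4. The lowest IUO library lay just above the highest saline library, with a log2 fold change of 0.29 (SE 0.12) that was 0.18 without the striatal-marker libraries. Grm4, a metabotropic receptor with a log2 fold change of 0.45, was above saline in IUO 1 to 3 and below it in IUO 4. Its value was 0.17 without the striatal-marker libraries and 0.0087 with the covariates. Monoamine receptors had 12 positive and 6 negative signs and a median of 0.028, which was -0.20 without the striatal-marker libraries (13 of 18 negative) and -0.16 with the covariates. Drd2, the dopamine D2 receptor of striatal neurons, measured 4.56, 15.9, 4.95 and 4.92 CPM in saline 1 to 4 and 20.2, 49.9, 5.71 and 3.98 CPM in IUO 1 to 4. The high libraries were saline 2, IUO 1 and IUO 2. Its log2 fold change of 1.39 was -0.14 with the covariates, whose striatal mean includes Drd2 itself.

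Presynaptic vesicle genes (14 positive, 10 negative, median 0.041) and postsynaptic density genes (11 positive, 10 negative, median 0.026) stood near the median of all genes. Without the striatal-marker libraries their medians were -0.18 and -0.26. Both lists were lowest in IUO 4, at -0.33 and -0.36 relative to saline. The calcium sensor gene Syt2 measured 3.00, 3.44, 4.95 and 4.02 CPM in saline 1 to 4 and 9.96, 17.0, 3.00 and 5.43 CPM in IUO 1 to 4, high in IUO 1 and IUO 2. Its log2 fold change of 1.2 was 0.08 without the striatal-marker libraries. Rims2, an active zone scaffold, measured 42.6, 35.4, 36.9 and 32.2 CPM in saline 1 to 4 and 50.3, 52.2, 41.4 and 41.7 CPM in IUO 1 to 4, and saline 1 overlapped the 2 lower IUO libraries; the log2 fold change of 0.34 was 0.16 without the striatal-marker libraries.

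Among 19 markers of cortical layers and projection neurons 13 were positive and 6 negative, with a median of 0.075. Neurod6, a transcription factor of pyramidal neurons, measured 89.0, 90.3, 112 and 98.6 CPM in saline 1 to 4 and 84.1, 61.9, 86.0 and 84.3 CPM in IUO 1 to 4. IUO 2 was lowest, the groups did not overlap, and the log2 fold change of -0.30 (SE 0.12) contrasted in sign with Cux1, which had a log2 fold change of 0.27 (SE 0.10) (0.11 without the striatal-marker libraries) and overlap through IUO 4. Fezf2, which specifies deep-layer projection neurons, measured 36.0, 44.9, 52.1 and 55.9 CPM in saline 1 to 4 and 41.2, 32.7, 43.4 and 36.1 CPM in IUO 1 to 4, with a log2 fold change of -0.30 (SE 0.14). Pyramidal-neuron genes had both signs.

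Myelin genes were higher in sign in 15 of 16, with a median of 0.24 that became -0.15 without the striatal-marker libraries. Relative to saline the 8 libraries stood at 0.05, 0.45, -0.33 and -0.16 in saline 1 to 4 and 0.45, 0.84, -0.39 and -0.11 in IUO 1 to 4: the high libraries were saline 2, IUO 1 and IUO 2, those marked by striatal genes. Oligodendrocyte precursor genes were split 7 to 5, with a median of 0.07. Cspg4 (NG2), their defining proteoglycan, measured 23.9, 25.5, 23.6 and 29.4 CPM in saline 1 to 4 and 19.6, 19.9, 22.9 and 23.5 CPM in IUO 1 to 4, narrowly without overlap, with a log2 fold change of -0.25 (SE 0.12) that was -0.14 without the striatal-marker libraries.

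Cholesterol synthesis, which in the young brain serves mainly myelin and synapses, was mostly negative in sign. Of 20 genes 18 were negative, with a median of -0.19, 2 were lower and 1 higher at an unadjusted p under 0.05 (background 1.71% and 2.31%), and the median was -0.23 without the striatal-marker libraries and -0.30 with the covariates. Relative to saline the IUO libraries stood at -0.052, -0.021, -0.28 and -0.36, so IUO 3 and IUO 4 were low. Dhcr7, the last step to cholesterol, measured 37.7, 44.8, 40.9 and 42.2 CPM in saline 1 to 4 and 37.1, 35.7, 31.0 and 24.6 CPM in IUO 1 to 4. The groups were just separate, with a log2 fold change of -0.37 (SE 0.13). Msmo1, a sterol demethylase, measured 158, 177, 123 and 141 CPM in saline 1 to 4 and 129.6, 133, 115 and 118 CPM in IUO 1 to 4, where saline 3 overlapped. Lss, lanosterol synthase, went against the list at 23.0, 19.5, 19.3 and 18.8 CPM in saline 1 to 4 and 37.2, 40.4, 26.4 and 18.3 CPM in IUO 1 to 4; it was high in IUO 1 and IUO 2 and its log2 fold change of 0.60 was 0.13 without the striatal-marker libraries.

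Astrocyte genes were 5 positive and 11 negative, with a median of -0.038 (0.042 with the covariates). Aldh1l1, a folate enzyme that defines astrocytes, measured 37.7, 37.7, 34.3 and 41.9 CPM in saline 1 to 4 and 29.7, 25.3, 30.2 and 25.6 CPM in IUO 1 to 4. All IUO values were below saline, with a log2 fold change of -0.45 (SE 0.15) that lay between -0.52 and -0.38 in all 25 alternatives. Of 17 microglial genes 14 were negative, with a median of -0.10, which was -0.027 without the striatal-marker libraries (11 of 17 negative) and -0.015 with the covariates. Members of the list disagreed: Trem2, a lipid receptor of microglia, measured 7.08, 6.11, 7.36 and 7.43 CPM in saline 1 to 4 and 9.04, 8.27, 8.76 and 15.0 CPM in IUO 1 to 4, above saline in each IUO library (log2 fold change 0.55, 0.31 without IUO 4), while the purinergic receptor gene P2ry13 measured 7.54, 8.68, 8.42 and 9.32 CPM in saline 1 to 4 and 6.18, 8.25, 6.31 and 5.61 CPM in IUO 1 to 4, and the complement gene C1qa (-0.30) was below saline in IUO 1 to 3 and above it in IUO 4.

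Inflammatory genes (9 tested, 6 negative, median -0.072) had 0 members at an unadjusted p under 0.05 (background 4.02% in either direction). The 13 interferon response and antigen presentation genes were 10 negative and 3 positive, with a median of -0.18 (-0.08 without the striatal-marker libraries), and their level was uneven within saline, from -0.27 in saline 3 to 0.32 in saline 4 around the saline mean. Tap2, a subunit of the peptide transporter for antigen presentation, measured 7.11, 8.27, 7.83 and 10.3 CPM in saline 1 to 4 and 6.68, 6.19, 6.86 and 6.87 CPM in IUO 1 to 4. IUO values were tightly grouped below saline, with a log2 fold change of -0.33 (SE 0.16).

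**Figure D4:**
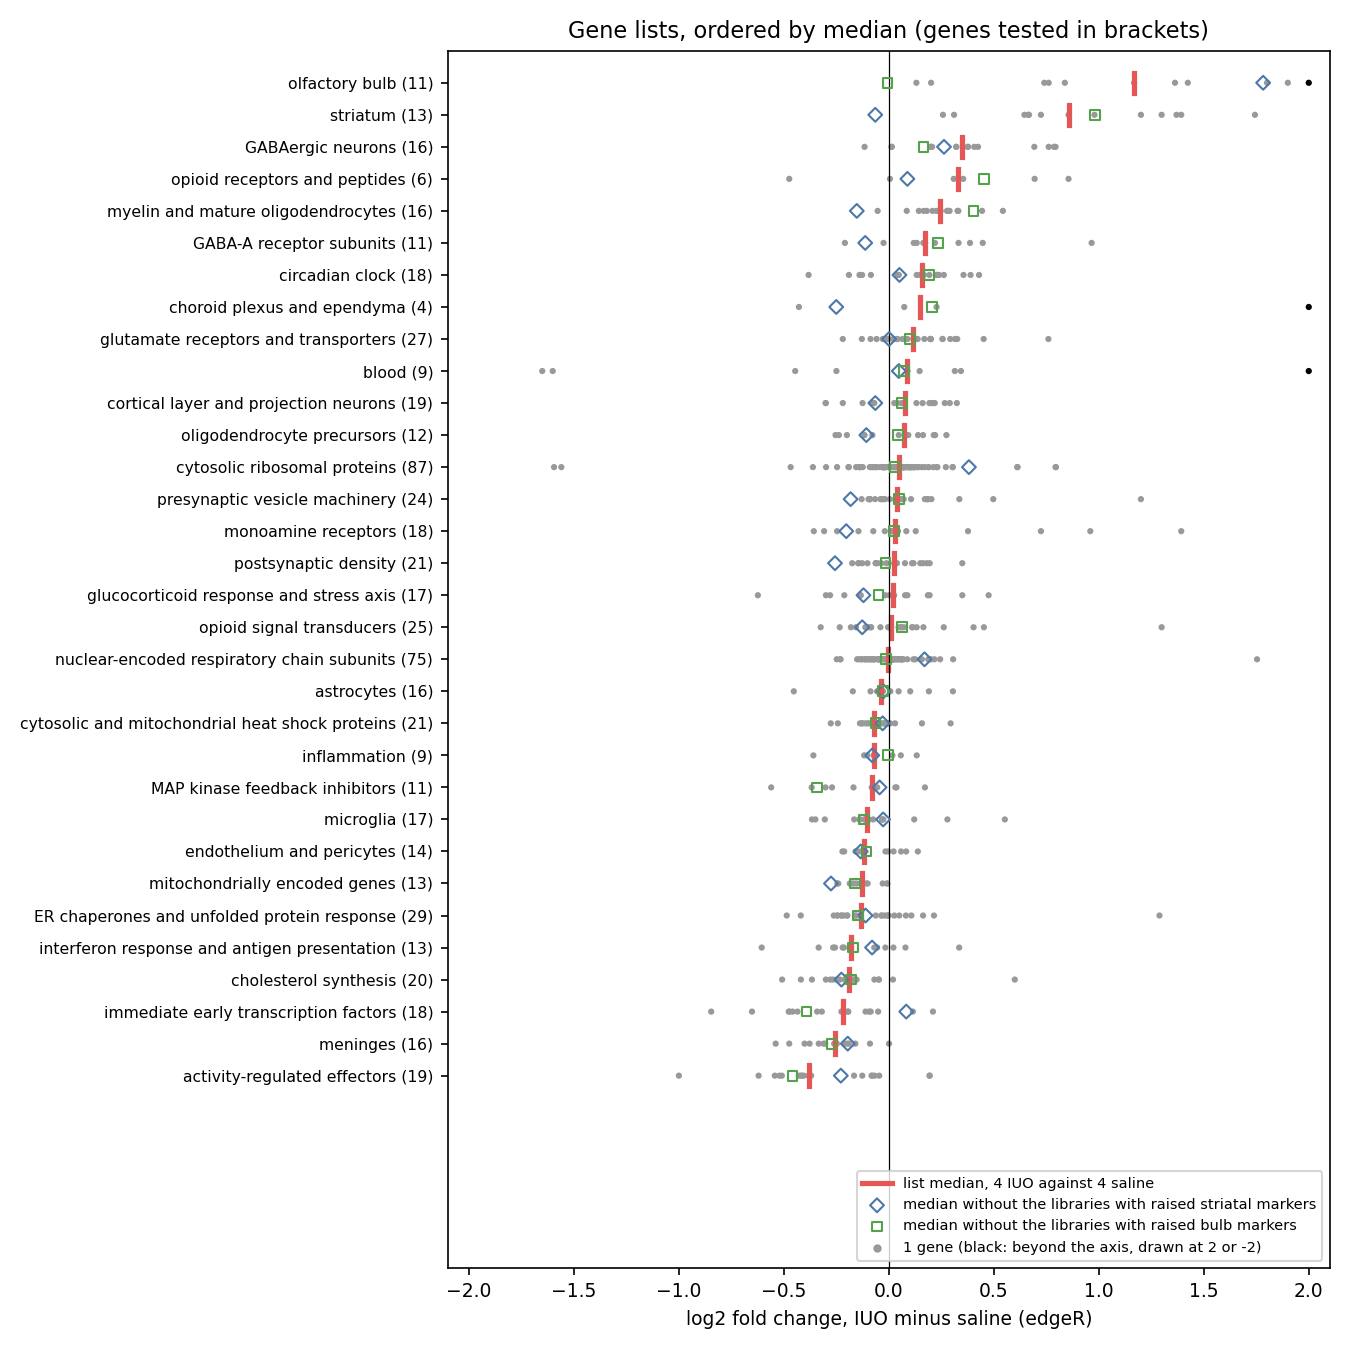
Log2 fold change of each tested member (grey points) and the median (red bar) of 32 gene lists, ordered by median, with the median recomputed without the striatal-marker (blue diamonds) or the bulb-marker libraries (green squares). The medians of the activity-regulated effectors (-0.38), meninges (-0.26) and cholesterol synthesis (-0.19) stay below 0 under both, while those of immediate early transcription factors and myelin change sign without the striatal libraries.

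Clock genes form a feedback loop in which CLOCK, NPAS2 and BMAL1 activate targets through E-boxes. Of 18 genes 13 were positive, 4 were higher at an unadjusted p under 0.05 and 0 lower (background 2.31% and 1.71%), and the median was 0.16. It was 0.051 without the striatal-marker libraries and 0.04 with the covariates. The members with a negative log2 fold change were Per1 (-0.38), Per2 (-0.19), Nfil3 (-0.14), Bhlhe40 (-0.13) and Cry2 (-0.085). Time of tissue collection is not in the labels. Dbp, an output factor of the clock, measured 141, 174, 133 and 153 CPM in saline 1 to 4 and 184, 204, 194 and 187 CPM in IUO 1 to 4. The groups did not overlap, with a log2 fold change of 0.36 (SE 0.10) that stayed between 0.27 and 0.43 in all 25 alternatives. Nr1d1 (REV-ERB alpha), a repressor of the loop, measured 97.3, 133, 145 and 169 CPM in saline 1 to 4 and 169, 196, 167 and 201 CPM in IUO 1 to 4. The lowest IUO library was just below the highest saline library, saline 4, with a log2 fold change of 0.43 (SE 0.15).

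Npas2, an activator of the loop, measured 60.1, 57.5, 62.6 and 65.1 CPM in saline 1 to 4 and 76.9, 71.7, 62.2 and 76.4 CPM in IUO 1 to 4, with IUO 3 inside the saline range. Ciart, a repressor, measured 7.01, 7.31, 8.17 and 9.42 CPM in saline 1 to 4 and 10.9, 10.8, 12.9 and 7.22 CPM in IUO 1 to 4, with IUO 4 inside it; its log2 fold change of 0.39 was 0.11 with the covariates. The E-box CACGTG was found for 5 of 15 matched clock genes (Bhlhe40, Bhlhe41, Ciart, Nr1d1 and Tef) and in 6.42% of all promoters (9.12% of those of tested genes). It was also found for 5 of 16 matched activity-regulated effectors and 4 of 23 matched members of the endoplasmic reticulum list. These shares too draw on sequence alone, not on the values of these libraries. Nr1d1 and Ciart had both a match and an unadjusted p under 0.05, and the Nr1d1 promoter, that of the smaller p, is shown with its E-box in capitals, at chr10:84229455-84229704 of GRCr8, minus strand.

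Nr1d1 promoter: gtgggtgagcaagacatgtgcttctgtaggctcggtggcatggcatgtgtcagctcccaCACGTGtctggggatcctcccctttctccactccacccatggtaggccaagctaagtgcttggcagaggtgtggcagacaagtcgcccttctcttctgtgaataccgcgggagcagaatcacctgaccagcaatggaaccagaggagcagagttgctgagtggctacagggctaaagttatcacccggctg

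Genes of the glucocorticoid response and stress axis were 10 positive and 7 negative, with a median of 0.019. Cdkn1a (p21), an inhibitor of cyclin-dependent kinases, measured 18.7, 15.5, 17.5 and 18.8 CPM in saline 1 to 4 and 11.4, 9.24, 11.3 and 13.9 CPM in IUO 1 to 4. IUO values were all below saline, with a log2 fold change of -0.62 (SE 0.17). Cdkn1a was the 1 member at an unadjusted p under 0.05 (background 4.02% in either direction).

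All 13 mitochondrially encoded genes had a negative sign, with a median of -0.13, and 2 of them did not overlap between groups (background 1.03% for lower genes). Mt-atp6, a subunit of ATP synthase, measured 23089, 21783, 23042 and 23465 CPM in saline 1 to 4 and 19104, 20120.5, 21149.6 and 16961 CPM in IUO 1 to 4. Mt-co1, a subunit of complex IV, measured 51262, 42163, 45377 and 47538 CPM in saline 1 to 4 and 38873, 41962, 41002 and 35376 CPM in IUO 1 to 4. IUO 4 was lowest for both. The list stood at -0.12, -0.033, -0.037 and -0.37 in IUO 1 to 4 relative to saline, and its median was -0.047 without IUO 4 but -0.28 without the striatal-marker libraries. The 75 rows of nuclear-encoded respiratory chain genes had 35 positive and 40 negative signs. Without IUO 4, 70 of the 75 were negative (median -0.16), and without the striatal-marker libraries 66 were positive (median 0.17). The 87 rows of cytosolic ribosomal protein genes had 57 positive and 30 negative with a median of 0.051. Ribosomal genes stood at -0.36, -0.35, 0.047 and 0.56 in IUO 1 to 4 relative to saline, so that IUO 4 was high where IUO 1 and IUO 2 were low, and their median was -0.18 without IUO 4 and 0.38 without the striatal-marker libraries.

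Endothelial, pericyte and meningeal genes were mostly lower in sign. Blood genes (5 positive, 4 negative, median 0.089) and choroid plexus and ependyma genes (3 positive, 1 negative, median 0.15) were not. Endothelial and pericyte genes were 4 positive and 10 negative, with a median of -0.12 (-0.059 with the covariates). Of 16 meningeal genes 15 were negative, with a median of -0.26, -0.20 without the striatal-marker libraries and -0.058 with the covariates, and a level of 0.08, -0.29, 0.10 and 0.11 in saline 1 to 4 and -0.33, -0.57, -0.29 and 0.08 in IUO 1 to 4 relative to saline. IUO 2 was lowest and IUO 4 was at the level of saline. Slc22a6, an organic anion transporter of meningeal cells, measured 13.4, 11.4, 16.4 and 17.8 CPM in saline 1 to 4 and 9.63, 7.65, 10.1 and 13.2 CPM in IUO 1 to 4, with a log2 fold change of -0.54 (SE 0.24) that was -0.23 with the covariates. Blood markers were uneven in both groups, at 1.49, -0.68, 0.15 and -0.96 in saline 1 to 4 and -0.99, -0.51, -0.013 and 1.42 in IUO 1 to 4 relative to the saline mean; the alpha-globin gene Hba-a2 measured 3592, 440.5, 1587 and 473 CPM in saline 1 to 4 and 1085, 1514, 1531 and 3600.3 CPM in IUO 1 to 4. The choroid plexus gene Ttr measured 17.5, 1.6, 0.347 and 0.476 CPM in saline 1 to 4 and 0.252, 199, 0 and 2.83 CPM in IUO 1 to 4, so saline 1 and IUO 2 carried it. Among bulb markers, Eomes measured 0.28, 0.221, 0.468 and 0.159 CPM in saline 1 to 4 and 0.757, 0.285, 11.2 and 0.442 CPM in IUO 1 to 4, high in IUO 3 alone.

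**Figure D5:**
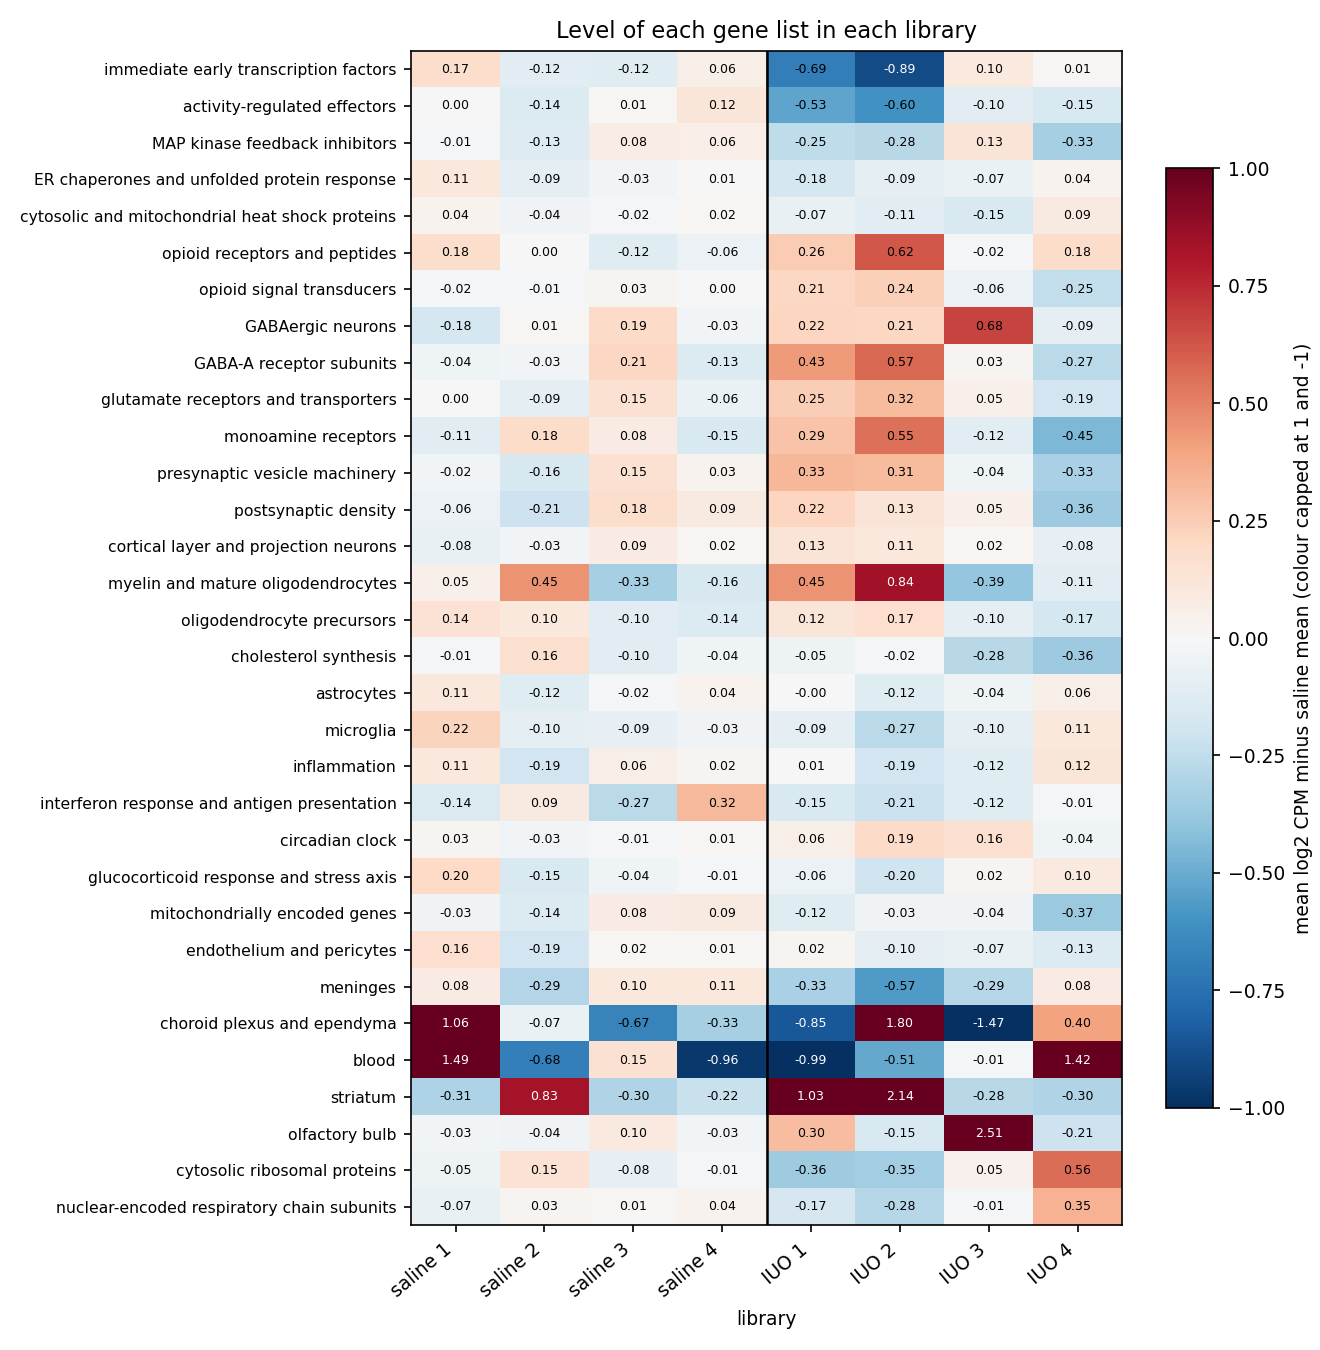
Mean log2 CPM of each of 32 gene lists (rows) in each library (columns), minus the mean of the 4 saline libraries; red is higher, blue lower, and numbers give the value. IUO 1 and IUO 2 share low activity-regulated genes (-0.53 and -0.60 for effectors) and high striatal markers (1.03 and 2.14), IUO 3 has high bulb markers (2.51), and IUO 4 has low mitochondrially encoded (-0.37) and high ribosomal genes (0.56).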

How the data were processed

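The deposited table holds 22431 genes with whole-number counts per library and FPKM per library (per the file headers). Per the submitters' processing notes, the authors used HISAT2 and StringTie. Versions, build, annotation and use of strand were not given in the sources used here, and overlapping antisense genes cannot be told apart. Libraries were poly(A) and stranded per the labels' protocols. Genes under a mean FPKM of 0.5 across all 12 libraries were left out, and the deposited counts of the rest were fitted in 1 edgeR quasi-likelihood model with 3 groups and TMM factors, and the IUO minus saline contrast was tested two-sided with Benjamini-Hochberg adjustment over 14170 genes. CPM per library are TMM-scaled and log2 CPM used a prior count of 2. Total counts of 49227533 to 60672246 make counting error small except for genes with few counts. R 4.3.3, edgeR 4.0.16, limma 3.58.1 and DESeq2 1.42.0 were used, and the fits were tested on simulated data. The genes, lists and tests were chosen with earlier results of these data known. Genes named are the 12 higher and 12 lower with the smallest unadjusted p, those DESeq2 called, up to 4 members per list with the smallest unadjusted p, and 6 opioid genes; Arc was chosen after its values were seen, as were the lists of ribosomal and respiratory chain genes. Some genes and 1 sequence that these rules select are not reported here. Lists are described by counts and medians, with no set test. Promoters are from RefSeq (GRCr8), matched by symbol for 451 of 614 listed genes. Alternatives were other tests, factors, filters and pseudocounts, a replicate block, each library left out, region scores or Eif2s3y as covariates, and the libraries with raised region markers left out.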

Additional observations from a re-analysis of the deposited data

Results flagged for a closer look

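In 24 of 228 sets of 4 values checked (CPM of the genes described and list means, per group), 1 library stood apart from the other 3 past Dixon's critical value for 4 samples (the gap over the whole range), and chance flags about 1 in 20 groups. IUO 4 was apart for Wdr41 (47.6 CPM), Ltc4s (9.42), Mis18a (0.405), ENSRNOG00000025589 (35.2), Dnaja1 (231) and Trem2 (14.97). IUO 2 was apart for Zwint (2279 CPM), Pcsk1 (15.2), Penk (296), Neurod6 (61.9) and Ttr (199). IUO 3 was apart for S100a5 (5.66 CPM), ENSRNOG00000027006 (11.5), Eomes (11.2), Eif2s3y (53.9) and the mean log2 CPM of the sex-linked genes (4.98). Among saline libraries, saline 2 was apart for Penk (145 CPM), Drd2 (15.9), the striatal mean (4.87 log2 CPM) and the meningeal mean (4.55 log2 CPM). Saline 1 was apart for Ttr (17.5 CPM), saline 3 for Ltc4s (3.11 CPM) and the olfactory bulb mean (2.46 log2 CPM), and saline 4 for Bdnf (36.1 CPM).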

How the results depend on the processing

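The count of 0 genes was 0 in every alternative other than these: DESeq2 called 11, the fit without the libraries with raised striatal markers 4 (among them Zwint, ENSRNOG00000066636 and ENSRNOG00000068764) and the fit without those with raised bulb markers 1 (ENSRNOG00000027006). Without single libraries it ran from 0 to 1 (1 without saline 2, and Zwint without IUO 2). ENSRNOG00000066636 and ENSRNOG00000068764 overlap on opposite strands, and both calls are uncertain. Their fit leaves out IUO 1 and IUO 2, where both entries stood near the saline values, as given below. The fit that called ENSRNOG00000027006 leaves out IUO 3, the only IUO library in which this gene was above 0 CPM. The count at an unadjusted p under 0.05, 570, was 876 with no filter, 1323 with library quality weights, 1015 without the striatal-marker libraries and 1057 with region means as covariates; without single libraries it ran from 479 to 1276, the highest without IUO 4. With the replicate block edgeR called 0 genes and gave 705 at an unadjusted p under 0.05. Saline and IUO libraries of the same number correlated at 0.015 to 0.14 in their deviations, with 2 of 4 IUO libraries correlating best with their own number, so the numbers were not taken to pair animals.

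Of the 33 list medians, 12 kept their sign in all 25 alternatives. Without the striatal-marker libraries the median was 0.088 for opioid genes, -0.26 for the postsynaptic density, -0.064 for cortical layers, -0.11 for oligodendrocyte precursors, 0.051 for the clock, -0.12 for the glucocorticoid response, -0.28 for mitochondrially encoded genes, -0.065 for the striatum and 0.38 for ribosomal proteins. With the covariates it was -0.39 for MAP kinase inhibitors, 0.022 for heat shock proteins, 0.023 for GABAergic neurons, -0.088 for oligodendrocyte precursors, 0.11 for inflammation, 0.040 for the clock, -0.32 for mitochondrially encoded genes, 0.066 for the bulb and -5.68 for sex-linked genes. Without the bulb-marker libraries it was -0.34 for MAP kinase inhibitors, -0.0059 for the bulb and -5.50 for sex-linked genes, and with a mean FPKM of at least 2 the choroid plexus median was 1.69. The striatal and bulb lists marked the libraries left out and gave the covariates, so the shifts of their own medians were built in. Without single libraries the median ran from -0.33 to -0.024 for MAP kinase inhibitors, -0.082 to 0.058 for astrocytes, 0.042 to 0.21 for the clock and 0.0087 to 1.48 for the bulb, and the median log2 fold change of sex-linked genes from -5.48 to -0.50.

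Of 81 genes described, 73 kept their sign throughout. The sign turned for Pdyn without IUO 2 (-0.25), without the striatal-marker libraries (-0.50) and with covariates (-0.25), for Arrb1 without those libraries (-0.16) and with covariates (-0.050), for Gad2 (-0.057) and C1qa (0.0044) without those libraries, for Drd2 with covariates (-0.14) and for Hba-a2 without IUO 4 (-0.15). Ttr turned with limma-voom (-0.72), quality weights (-0.37), without IUO 2 (-2.28) and without the striatal-marker libraries (-2.11). Oprl1, near 0 throughout, turned with DESeq2 (-0.0034), limma-voom (-0.0030), no filter (-0.011), the stricter FPKM filter (-0.0043), RLE factors (-0.0030), upper-quartile factors (-0.0069), only the 8 libraries (-0.0085), covariates (-0.013), without the striatal-marker libraries (-0.14) and without saline 4 (-0.058), IUO 1 (-0.042) or IUO 2 (-0.047). Without single libraries the range was -0.25 to 0.58 for Pdyn, -0.058 to 0.067 for Oprl1, -2.28 to 5.96 for Ttr and -0.15 to 1.21 for Hba-a2. The causes were not tested. With 4 animals from 2 dams per group and genes such as Ftcd at under 100 counts in saline, low genes are limited by counting as well as by the spread between animals.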

Other observations

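Some genes, picked after their values were seen, differed between libraries in steps rather than by degree. ENSRNOG00000027006, a protein-coding entry without a symbol on chromosome 10, measured 24, 23.2, 24.9 and 18.5 CPM in saline 1 to 4 and 0, 0, 11.5 and 0 CPM in IUO 1 to 4: 3 of the 4 IUO libraries were at 0 while IUO 3 and the saline libraries were not. At chr14:21006534-21007300, minus strand, ENSRNOG00000066636 measured 39.8, 42.7, 39.6 and 43.0 CPM in saline 1 to 4 and 40.8, 37.3, 0 and 0 CPM in IUO 1 to 4. ENSRNOG00000068764 (Ppial4d), on the other strand of that stretch, measured 39.8, 42.7, 39.6 and 43.0 CPM in saline 1 to 4 and 40.8, 37.3, 94.9 and 107 CPM in IUO 1 to 4. In saline and in IUO 1 and IUO 2 these overlapping entries had nearly equal values, and in IUO 3 and IUO 4 all of the reads stood on the second, so that the split between them is uncertain. Tshz1, a transcription factor of olfactory bulb interneurons, measured 9.88, 11.4, 11.4 and 12.6 CPM in saline 1 to 4 and 18.9, 20.4, 32.7 and 8.93 CPM in IUO 1 to 4, highest in the library with raised bulb markers and lowest in IUO 4. Tshz1 is itself among the genes of the bulb mean that marks that library, so its high value there is not independent of the marking.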
